A study of Mus musculus with 24 samples.

Results

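Wild-type (WT) mouse embryonic stem cells (mESCs) of 2 RNA-seq batches, marked E and A in the sample labels, were compared with each other. The libraries were taken by their labels, 2 of WT E and 2 of WT A, which are 4 of the 24 libraries of the series and 4 of its 11 WT libraries. All 4 come from 129S6/SvEvTac cells labelled wild-type with no treatment, which the study grew on gelatin in medium with fetal calf serum and leukemia inhibitory factor (LIF), and all 4 were made from polyA RNA. The series set deletion lines of ISWI remodeler subunits against WT cells of their own batch, so each batch holds its own WT, and the difference between batches is what the study's model removes. WT B (2 libraries) and WT D (3 libraries), also polyA RNA of untreated 129S6/SvEvTac cells, were used as further levels of the same wild type. WT C was left out, since RNAs that lack a poly(A) tail were counted in it. From batch E the Acf1Δ line (2 libraries), and from batch A the Rsf1Δ and WstfΔ lines (2 libraries each), gave other cells of the same batches, with total counts from 13417755 to 28315242. Each deletion line is 1 clone made with Cas9 in the same background. Culture, RNA extraction, library preparation and sequencing run may all differ between batches E and A, and they cannot be told apart here. The study calls its replicates independent, while the labels do not say what the 2 libraries of a group share. The p-values therefore measure only the spread between libraries within groups, estimated over all 24 libraries.

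mESCs in serum and LIF fluctuate between a naive state, held by LIF through STAT3 and by factors such as NANOG, ESRRB, KLF4, KLF5 and TBX3, and a formative or primed state that precedes lineage choice. FGF4 acting through ERK moves cells toward the primed state, in which Fgf5, Otx2, Pou3f1, Lef1 and the de novo DNA methyltransferases are raised. Some cells in such cultures take up early programs of primitive streak, primitive endoderm or trophectoderm, whose markers are Brachyury (T), Gata4 and keratins. Serum also feeds the actin and Hippo pathways, which act on SRF and YAP target genes.

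Total counts were 24711280 and 22854001 in WT A and 27411057 and 26803928 in WT E, and 3 counts correspond to 0.111 to 0.129 normalized CPM (counts scaled by the TMM library size). The summed level of 8 mESC markers was 2971 and 2842 normalized CPM in WT A and 3684 and 3901 in WT E, and none of these markers was absent. The 9 fibroblast and feeder markers summed to 21.3 and 22.3 normalized CPM in WT A and 26.97 and 26.7 in WT E. Of these Lum was at 0 in all 4 libraries and Dcn had at most 2 counts. The 6 primitive endoderm markers summed to 322 and 329 in WT A and 241 and 235 in WT E. The 4 trophectoderm markers summed to 15.5 and 16.1 in WT A and 7.66 and 6.63 in WT E, and the 4 mesoderm markers to at most 3.75 in any library. The 4 neural markers summed to 69.4 and 67.8 in WT E against 58.9 and 55.8 in WT A. Among them only Sox1 lay apart, with 13.6 and 11.7 in WT E against 3.11 and 3.53 in WT A. Pax6 and Tubb3 overlapped between the groups, and Neurog2 had at most 1 count in any library. Lower levels of such markers in bulk RNA can come from fewer cells of a type or from less RNA per cell, which cannot be told apart. The replicates differed beyond counting noise (mean chi-square per gene 4.59 in WT A and 11.4 in WT E), and none was taken as a repeat of another.

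In edgeR's quasi-likelihood fit of all 24 libraries 15682 genes were tested, and 705 (4.50%) of them were differentially expressed genes (DEGs) between WT E and WT A. A DEG has an absolute log2 fold change over 1 and a Benjamini-Hochberg adjusted p under 0.01. In WT E 375 were higher (2.39% of genes tested) and 330 were lower (2.10%). With no minimum of fold change, 4654 genes (29.7%) had an adjusted p under 0.01, with 2303 higher (14.7%) and 2351 lower (15.0%). The median log2 fold change of all genes tested was -0.03. Genes were then grouped in lists by known role, and "rose" and "fell" below stand for an adjusted p under 0.01 in WT E against WT A. From each list up to 4 members with the largest change were named by rule, and further members were named after their values were seen. A stricter test, which asks whether a change exceeds 2-fold (edgeR's glmTreat), called 51 genes, 34 higher and 17 lower. Most DEGs were weakly expressed, as the plot of fold change by level shows: with genes cut by level into 5 bins of equal size, 0.574% of the highest bin were higher DEGs and 0.159% lower DEGs, against 3.22% and 5.39% of the lowest bin.

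**Figure D1:**
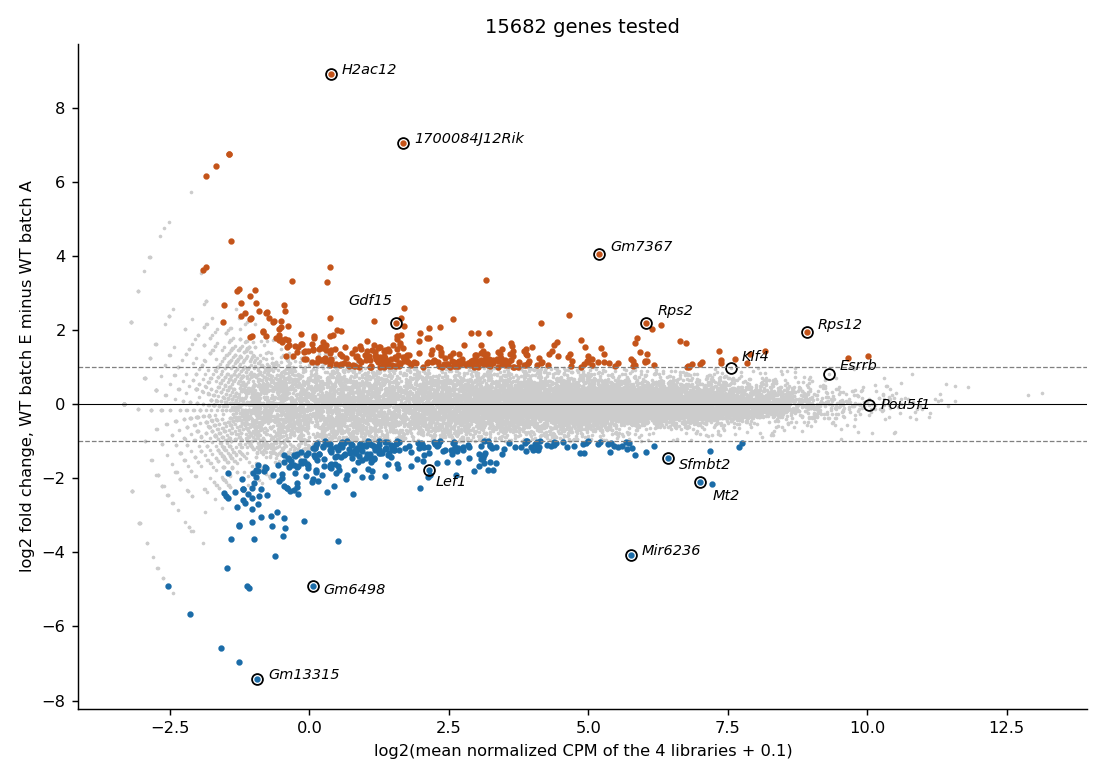
Each point is 1 of 15682 genes, with log2 of its mean normalized CPM over the 4 libraries (plus 0.1) on the x axis and its log2 fold change of WT E minus WT A on the y axis. Orange points are the 375 DEGs higher in WT E, blue points the 330 lower, grey points are other genes, dashed lines mark log2 fold changes of 1 and -1, and ringed genes are named in the text.

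Naive pluripotency genes were higher in WT E. Of 24 tested members of the list, 16 rose and 0 fell at an adjusted p under 0.01, and their median log2 fold change was 0.36. Klf4, a LIF-responsive Krüppel-like factor on chromosome 4 from 55527137 to 55532475 (mm10), had 133 and 121 normalized CPM in WT A and 238 and 262 in WT E, a log2 fold change of 0.97 ± 0.088 (SE, 2 libraries per group, edgeR adjusted p = 2.7e-09). Klf5, which acts beside it in self-renewal, had 289 and 272 in WT A and 576 and 522 in WT E (log2 fold change 0.97 ± 0.063, edgeR adjusted p = 1.2e-11). Both E libraries lay above both A libraries for each of these genes. Tcl1, a coactivator of AKT, was the only naive gene called as a DEG, with 37.98 and 35.5 in WT A and 76.6 and 73.8 in WT E (1.03). With the trend of fold change on GC content and gene width taken out, as described below, Tcl1 was at 0.96 and Klf5 at 1.01, so that Klf5 was beyond 2-fold in its place. Esrrb, an orphan nuclear receptor, stood at 475 and 449 in WT A and 774 and 847 in WT E, and Nanog at 385 and 373 in WT A against 487 and 486 in WT E. Their log2 fold changes were 0.81 and 0.36 (edgeR adjusted p = 1.9e-10 and 2.5e-06). Nr0b1 (0.81), Tbx3 (0.80), Jam2 (0.75), Alpl (0.55), Gbx2 (0.50) and Nr5a2 (0.39) also passed. Zfp42, Fbxo15, Dppa5a and Zfp57, which are used as mESC markers, had log2 fold changes between 0.00097 and 0.027 and did not pass, nor did Fgf4, Tdh, Klf2 and Dppa3.

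The core factors were split. Pou5f1 (OCT4) had 1076 and 1048 normalized CPM in WT A and 989.8 and 1099 in WT E, overlapping groups with a log2 fold change of -0.024 ± 0.068 (edgeR adjusted p = 0.81). Sox2, its partner, rose from 307 and 304 to 456 and 454 (0.57 ± 0.072, edgeR adjusted p = 5e-07). Utf1, a chromatin factor that OCT4 and SOX2 activate, rose from 188 and 166 to 332 and 363 (0.97, and 0.49 with the GC and width trend taken out). Lin28a, an RNA-binding protein that blocks let-7 maturation, and Trim28, a corepressor, fell by 0.36 and 0.24 on the log2 scale, although without WT A replicate 1 or WT E replicate 1 Trim28 no longer passed (edgeR adjusted p = 0.013 and 0.016). Among 19 genes of LIF and STAT3 signalling, 6 rose and 1 fell. Socs3, a feedback inhibitor that STAT3 induces, had 115 and 114 in WT A and 163 and 179.9 in WT E. Junb (0.60) and Bcl3 (0.53) also rose, while the receptor genes Lifr (-0.26) and Il6st (0.015) and Stat3 itself (-0.018) did not pass. Without WT A replicate 2 the list had 4 higher and 0 lower.

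**Figure D2:**
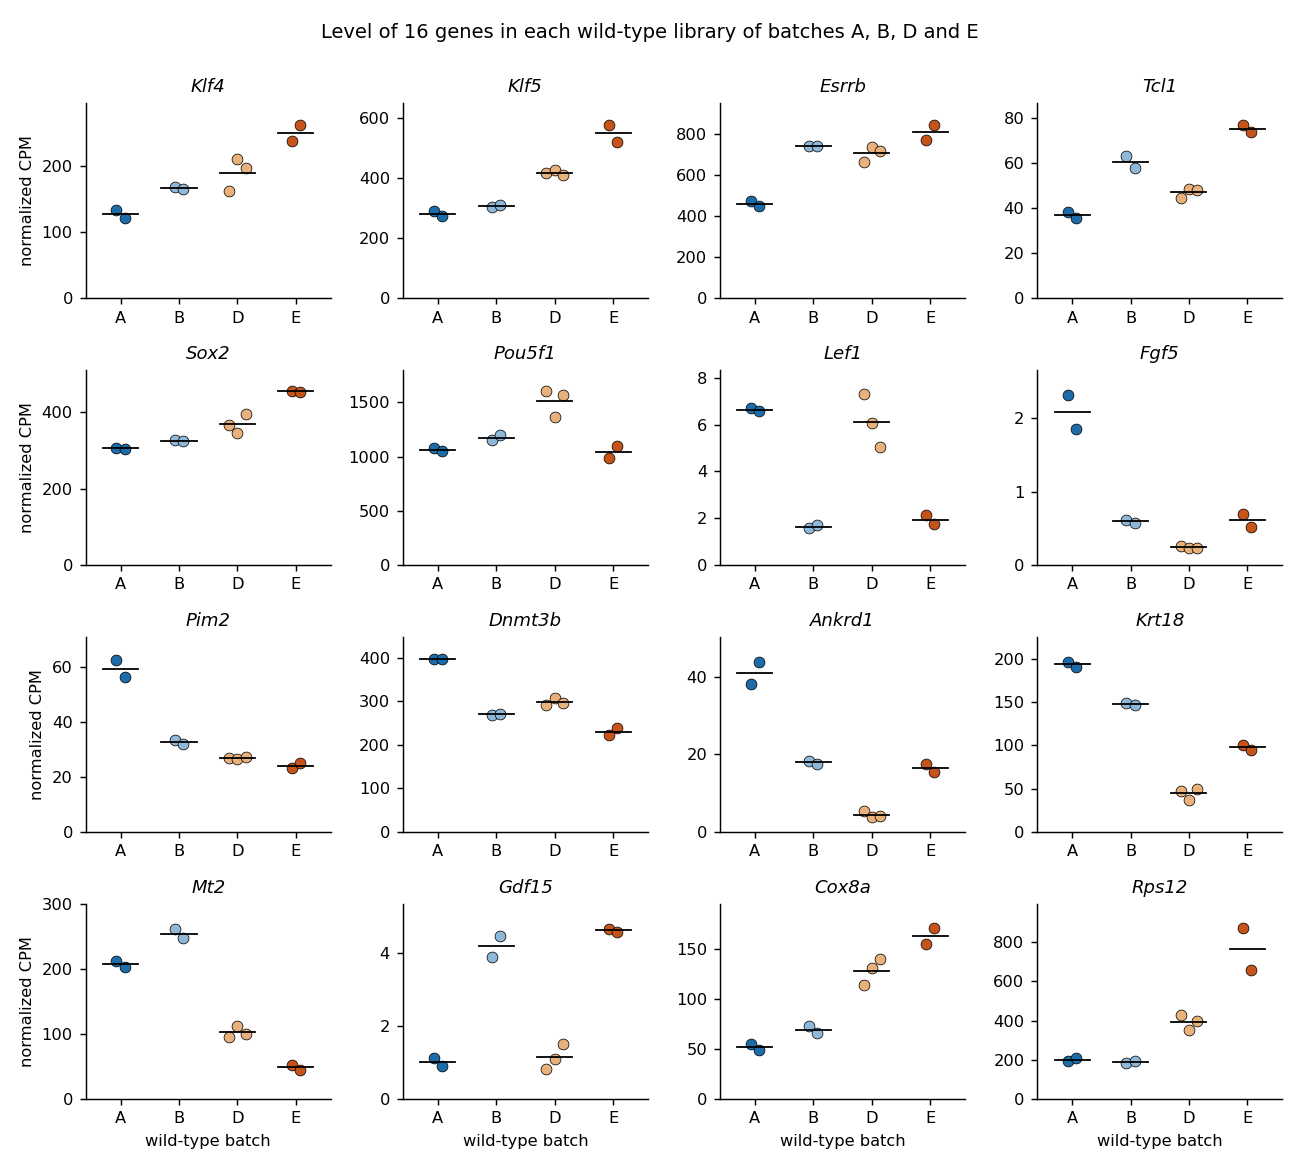
Normalized CPM (y axis, from 0, with its own range in each panel) of 16 genes in each WT library of batches A, B, D and E (x axis), with points for libraries and a line for their mean. Klf4, Klf5, Tcl1, Sox2, Cox8a and Rps12 are highest in the 2 E libraries, Lef1 and Fgf5 are lower in E than in A, and Pou5f1 overlaps between A and E.

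Formative and primed genes mostly moved the other way. Of 22 tested members 14 fell and 5 rose, with a median log2 fold change of -0.66, and 5 were DEGs, all lower in WT E. Lef1, a TCF family factor that carries Wnt signals, had 6.70 and 6.59 normalized CPM in WT A and 2.14 and 1.74 in WT E, a 3.42-fold difference (log2 fold change -1.77 ± 0.20, edgeR adjusted p = 1.1e-07). Fgf5, the ligand that marks the epiblast after implantation, was low, with 2.31 and 1.85 in WT A and 0.7 and 0.518 in WT E (log2 fold change -1.77 ± 0.36). The kinase gene Pim2 had 62.7 and 56.4 in WT A and 23.2 and 25.1 in WT E, and Sox3, a factor of early ectoderm, 3.87 and 3.66 in WT A against 1.47 and 1.78 in WT E. In all of these genes both E libraries were below both A libraries. Pou3f1 (-1.11), Cdh2 (-0.92), Sall2 (-0.87), Grhl2 (-0.70), Sox11 (-0.62) and Otx2 (-0.45) fell as well. Among the members that rose were Tcf15 (0.99), Foxd3 (0.97), Ncam1 (0.78) and Etv1 (0.61), and of these Foxd3 is also needed by undifferentiated mESCs. With the GC and width trend taken out Tcf15 was at 0.34 and Foxd3 at 0.49.

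The genes of de novo DNA methylation are part of this list. Dnmt3b had 398 and 397 normalized CPM in WT A and 223 and 238 in WT E, its cofactor Dnmt3l 342 and 338 in WT A against 194 and 201 in WT E, and Dnmt3a 202 and 198 in WT A against 130.5 and 138 in WT E. Their log2 fold changes were -0.79, -0.79 and -0.57 (edgeR adjusted p = 1.4e-10, 5.9e-11 and 2.3e-08), each under 2-fold and with no overlap. Tet2, which oxidizes 5-methylcytosine, rose by 0.65, whereas Tet1 (-0.023) and the maintenance enzyme Dnmt1 (0.0015) did not pass. Of 17 factors of this pathway 1 rose and 6 fell, and 1 or 2 rose and 4 to 6 fell when 1 of the 4 libraries was left out.

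Among 29 genes of FGF and ERK signalling 6 rose and 7 fell, with a median of -0.14, and without WT E replicate 2 there were 3 and 5. Spry2 (-0.35), Dusp4 (-0.68), Fos (-0.57) and the receptor gene Fgfr2 (-0.84) fell, Fgfr1 (0.28), Ier2 (0.53) and Etv1 rose, and Fgf4 (-0.10), Dusp6 (-0.072) and Spry4 (-0.20) did not pass. The list of 21 Nodal and BMP target genes had 6 higher and 5 lower. Id3, a BMP target, had 36.98 and 35.8 normalized CPM in WT A and 15.1 and 18.2 in WT E, and Id2 fell by 0.48, while Id1 (0.21), Lefty1 (-0.052) and Lefty2 (-0.041) did not pass.

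Wnt target genes were lower in WT E. Of 18 tested members 8 fell and 1 rose, with a median log2 fold change of -0.55, and the 8 became between 4 and 6 when 1 of the 4 libraries was left out. Levels were low. Sp8, a zinc finger factor, had 0.957 and 1.21 normalized CPM in WT A and 0.258 and 0.185 in WT E (log2 fold change -2.26 ± 0.53, edgeR adjusted p = 0.0011). T, the mesoderm factor Brachyury, had 0.838 and 1.03 in WT A and 0.258 and 0.37 in WT E, which are 21 and 24 counts against 7 and 10. Its log2 fold change of -1.56 ± 0.43 passed in the full fit (edgeR adjusted p = 0.0053) but without any 1 of the 4 libraries the adjusted p was between 0.013 and 0.053. Cdx1 (-1.19), Dkk1 (-1.15), Cd44 (-0.95), Ascl2 (-0.77) and the feedback gene Axin2 (-0.50) fell, and Tcf7 rose (0.42). Of 18 primitive streak and mesoderm genes 1 rose and 3 fell, down to 1 called gene without WT E replicate 2 and 2 without WT A replicate 1. Eomes, which acts in streak and trophoblast, rose from 2.91 and 4.005 to 5.60 and 5.48, and its call was lost without WT A replicate 1 or either E library.

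TCF and LEF proteins bind a short motif, written here as CTTTGAA, with CTTTGAT and also CTTTGTT as further forms, and searched on both strands, of which no 2 forms can begin at the same base. It was found in 13.9% of the 32851 promoter windows of the RefSeq table for GRCm38.p6 (250 bases before to 50 after a start site), and in 11.5% of the tested genes that have such a window. Of 12 tested Wnt targets with a window 4 held it, and of the 7 of them that fell 3 did. The 250 bases before the start sites of T and Sp8 are shown because both genes fell and both hold a match, which is in capitals. The T stretch is chr17:8434173-8434422 on the + strand and that of Sp8, at 1 of its 3 listed starts, chr12:118846983-118847232 on the + strand. Matches begin -235 and -51 bases from the start site. A match is a description of the letters and not a measured binding site.
T: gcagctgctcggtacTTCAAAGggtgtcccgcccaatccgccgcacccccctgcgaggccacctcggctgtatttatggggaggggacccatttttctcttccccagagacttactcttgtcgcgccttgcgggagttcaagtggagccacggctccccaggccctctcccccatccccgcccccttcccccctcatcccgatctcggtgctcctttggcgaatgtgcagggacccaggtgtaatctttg
Sp8: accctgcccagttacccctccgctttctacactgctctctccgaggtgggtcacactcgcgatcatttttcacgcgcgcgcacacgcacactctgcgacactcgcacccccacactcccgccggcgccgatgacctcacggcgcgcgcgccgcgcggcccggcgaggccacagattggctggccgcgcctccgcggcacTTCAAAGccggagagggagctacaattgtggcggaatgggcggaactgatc

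YAP and SRF target genes, which follow actin tension and Hippo signalling, were lower in WT E. Of 26 tested members 18 fell and 0 rose, with a median log2 fold change of -0.40, and 14 to 16 fell when 1 library was left out. Ankrd1, a YAP target, had 38.2 and 43.7 normalized CPM in WT A and 17.5 and 15.3 in WT E (-1.32 ± 0.11, edgeR adjusted p = 9.8e-10). Acta1, skeletal actin and a target of SRF, had 11.9 and 11.4 in WT A and 4.27 and 4.96 in WT E, and the myosin light chain gene Myl9 10.1 and 10.5 in WT A against 4.46 and 5.92 in WT E. Both groups lay apart in each of these genes. Fhl2 (-0.98), Thbs1 (-0.93), Tpm1 (-0.76), Ccn1 (-0.70), Tagln (-0.59), Flna (-0.55) and Ccn2 (-0.34) fell. Actb (-0.12) and Srf (0.12) did not pass. Genes of adhesion and matrix had 14 lower and 4 higher of 34 tested, and the 4 became 1 or 2 without any 1 of the 4 libraries. Among those that fell were the calcium-binding S100a6 (71.7 and 73.3 in WT A and 29.3 and 33.03 in WT E) and Anxa1 (34.7 and 33.1 in WT A against 15.1 and 15.4 in WT E).

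The CArG box, the motif that SRF binds, was in 1.63% of all promoter windows and in 1.57% of tested genes with a window. Of 21 tested YAP and SRF targets with a window 9 held it, and of the 15 of them that fell 7 did. Many of these genes are in the list because they are known SRF targets, so the share is no independent result. The 250 bases before the start sites of Acta1 and Myl9, both among the members with the largest change, are given with the CArG box in capitals. That of Acta1 is chr8:123894776-123895025 on the - strand and that of Myl9 chr2:156775214-156775463 on the + strand, with boxes that begin -73 and -161 bases from the start site.
Acta1: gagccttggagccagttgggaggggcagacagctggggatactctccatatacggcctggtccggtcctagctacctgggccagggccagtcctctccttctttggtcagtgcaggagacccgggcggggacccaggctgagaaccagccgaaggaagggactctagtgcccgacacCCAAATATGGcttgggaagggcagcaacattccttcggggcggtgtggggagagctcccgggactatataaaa
Myl9: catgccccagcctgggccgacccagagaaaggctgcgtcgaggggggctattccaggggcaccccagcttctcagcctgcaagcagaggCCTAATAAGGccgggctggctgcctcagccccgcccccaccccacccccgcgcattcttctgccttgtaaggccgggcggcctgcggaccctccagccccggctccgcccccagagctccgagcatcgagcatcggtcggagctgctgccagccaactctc

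Primitive endoderm genes were lower in WT E too. Of 23 tested members 14 fell and 1 rose, with a median of -0.40. Lrp2 and Cubn encode megalin and cubilin, endocytic receptors of visceral endoderm. Lrp2 had 150.2 and 259.6 normalized CPM in WT A and 70.5 and 100.1 in WT E, with log2 fold change -1.26 ± 0.17, and the 2 libraries of each group differed by more than in most named genes. Cubn had 77.5 and 121 in WT A and 37.8 and 52.5 in WT E. Genes of the basement membrane, which parietal endoderm makes in bulk, fell by less: Col4a1 (-0.74), Lama1 (-0.79), Lamb1 (-0.74) and Sparc (-0.40). The endoderm factors Gata4 (-0.62) and Sox7 (-0.63) and the receptor gene Pdgfra (-0.71) fell, and Gata6 (-0.27) and Sox17 (-0.28) did not pass. The 1 member that rose was Rbp4, a retinol carrier, from 0.997 and 1.33 to 3.17 and 3.48.

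Of 18 trophectoderm genes 8 fell and 2 rose, with a median of -0.74, and 1 rose without WT A replicate 1 or either E library. The keratins of simple epithelia led. Krt18 had 196 and 190.1 normalized CPM in WT A and 100.2 and 94.6 in WT E, Krt19 30.9 and 31.7 in WT A against 15.5 and 15.4 in WT E, and Krt7 12.2 and 12.8 in WT A against 5.49 and 4.22 in WT E. Krt8 (-0.85) and the ligand gene Wnt7b (-0.99) also fell, while Tead4 (0.60) and Eomes (0.68) rose and the lineage factors Gata3 (-0.25), Tfap2c (-0.23) and Cdx2 (-1.22, at under 1.1 normalized CPM) did not pass. Of 11 neural genes 2 rose and 3 fell, and 2 and 1 without WT A replicate 2. Sox1, a factor of neuroectoderm, had 3.11 and 3.53 in WT A and 13.6 and 11.7 in WT E (log2 fold change 1.93 ± 0.16, edgeR adjusted p = 5e-10), and Neurod1 11.05 and 10.9 in WT A against 29.3 and 26.99 in WT E. Nes, the intermediate filament nestin, went the other way with 77.6 and 87.6 in WT A and 28.9 and 34.7 in WT E.

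**Figure D3:**
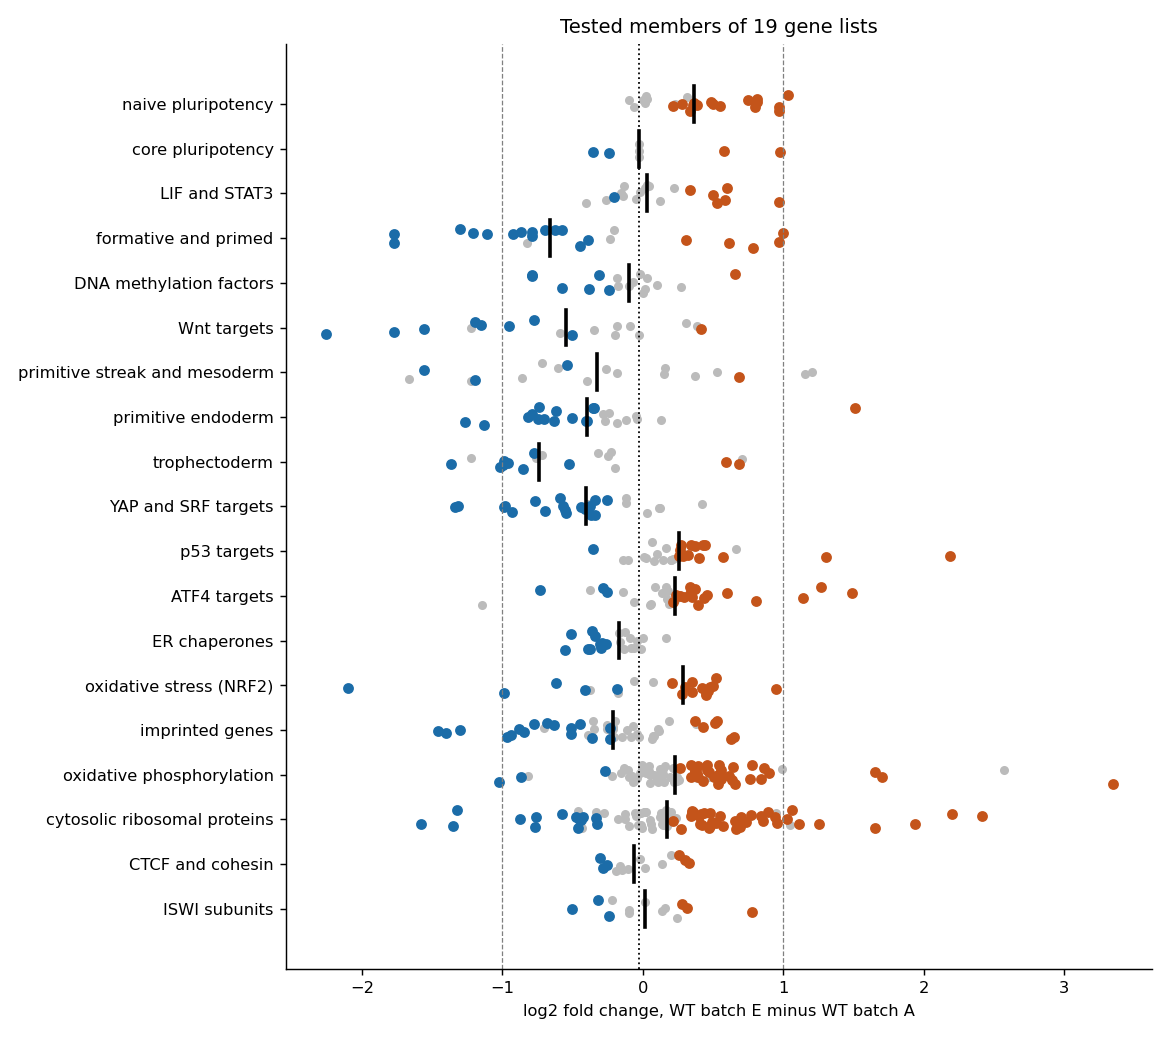
Each point is a tested member of 1 of 19 gene lists (y axis), placed at its log2 fold change of WT E minus WT A (x axis), orange or blue where it was higher or lower at an adjusted p under 0.01 and grey otherwise. Black bars are list medians, the dotted line is the median of all genes tested (-0.03) and dashed lines mark 2-fold; naive pluripotency has its median at 0.36 and formative and primed genes at -0.66.

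Stress and metabolic genes differed as well. Of 27 p53 target genes 13 rose and 1 fell, with a median of 0.25, and 7 rose without WT A replicate 2. Gdf15, a secreted stress cytokine, had 1.12 and 0.904 normalized CPM in WT A and 4.68 and 4.59 in WT E, a 4.55-fold difference (log2 fold change 2.19 ± 0.28, edgeR adjusted p = 7.3e-07). Bbc3 (PUMA), which starts apoptosis, had 12.6 and 12.6 in WT A and 25.4 and 36.5 in WT E. The other calls were small: Cdkn1a 0.32, Mdm2 0.25, Bax 0.26 and Ccng1 0.29. Trp53 itself (0.15) did not pass.

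Targets of ATF4, which answers amino acid shortage and the unfolded protein response, had 16 higher and 3 lower of 33 tested, with a median of 0.23, and 1 lower without WT A replicate 1. Atf5 had 15.4 and 13.5 normalized CPM in WT A and 36.3 and 33.7 in WT E, Cebpb 1.84 and 1.16 in WT A against 3.83 and 4.67 in WT E, and Aldh1l2, a mitochondrial folate enzyme, 3.11 and 2.45 in WT A against 5.93 and 6.41 in WT E. Atf4 (0.44), Chac1 (0.45), Asns (0.34) and Shmt2 (0.39) rose by less, and the amino acid transporter gene Slc38a2 fell (-0.73). Chaperones of the endoplasmic reticulum did not rise with them: of 21 tested, 10 fell and 0 rose, among them P4hb (-0.56), Dnajc3 (-0.51) and Hspa5 (-0.39). Of 22 NRF2 and metal-responsive genes 13 rose and 5 fell, and without WT E replicate 1 there were 8 and 3. Ftl1, ferritin light chain, had 621 and 563 in WT A and 1104 and 1180.1 in WT E, and shares 79.3% of its 50-base words with other gene models. Gclc (0.52), Srxn1 (0.48) and Nqo1 (0.42) rose, and Hmox1 (-0.41) and Gstp1 (-0.62), which NRF2 also activates, fell, although Gstp1 did not pass when any 1 of the 4 libraries was left out.

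The metallothioneins, small proteins that bind zinc and copper, fell strongly. Mt2 on chromosome 8 from 94172618 to 94173567 had 213 and 203 normalized CPM in WT A and 52.2 and 44.8 in WT E, a 4.29-fold difference with no overlap (log2 fold change -2.10 ± 0.081, edgeR adjusted p = 8.2e-16). Its neighbour Mt1 on chromosome 8 from 94178883 to 94180327 had 82.7 and 80.6 in WT A and 44.1 and 38.3 in WT E. WT B stood at 262 and 248 for Mt2 and WT D at 95.97, 113 and 99.8, so the 4 batches did not overlap, in the order B, A, D and E from the highest. Mt4, named after its values were seen, was barely detected and fell from 0.918 and 0.689 to 0.0368 and 0.148 (-3.06, edgeR adjusted p = 0.00028). Its order was another, with 0.0766 and 0.115 in WT B, beside E, and 0.484, 0.651 and 0.628 in WT D, nearer to A. Mt3 (0.62) did not pass.

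Of 41 genes of hypoxia and glycolysis 5 rose and 13 fell. Pfkfb3, which makes the activator of glycolysis, had 32.5 and 33.1 normalized CPM in WT A and 16.8 and 17.6 in WT E, and Ldha (-0.59), Slc16a3 (-0.68) and P4ha1 (-0.62) fell. Hk1, hexokinase 1, rose from 56.3 and 59.6 to 107 and 102, and Vegfa by 0.43. Cholesterol synthesis had 6 higher and 5 lower of 33, with Fdft1 at 84.4 and 77.4 in WT A and 148 and 131 in WT E. Heat shock genes had 5 higher and 3 lower of 14, with 1 lower without WT A replicate 1, with Hspa8 (0.56) higher and Hsph1 (-0.74) lower. Cell cycle genes had 7 higher and 7 lower of 33, none of them a DEG, and 3 higher and 4 lower without either A library. Cholesterol synthesis had 3 higher and 3 lower without WT E replicate 1 and 4 and 3 without WT A replicate 1.

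Of 46 imprinted genes 16 fell and 6 rose, with a median of -0.21, and 8 fell and 5 rose without WT A replicate 2. Imprinted genes are read from 1 parental copy, and their levels are known to vary between mESC cultures. Sfmbt2, a Polycomb protein gene on chromosome 2 from 10370440 to 10595253, had 118 and 135 normalized CPM in WT A and 44.4 and 47.4 in WT E (log2 fold change -1.46 ± 0.10, edgeR adjusted p = 1.2e-11). Igf2, the growth factor, had 91.7 and 94.2 in WT A and 37.5 and 37.8 in WT E, and H19, which lies beside it and is read from the other parental copy, fell by 0.85. Peg3 (-0.96), Peg10 (-0.94), Meg3 (-0.51) and Rian (-0.51) fell, and Grb10 (0.65), Zrsr1 (0.63) and Cd81 (0.53) rose. Igf2 shares 75.9% of its 50-base words with other gene models.

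Germline genes had 6 higher and 7 lower of 29, with 2 higher without WT E replicate 1. Stra8, which starts meiosis, had 8.46 and 8.40 normalized CPM in WT A and 19.8 and 17.3 in WT E, Sycp3 of the synaptonemal complex 7.38 and 8.23 in WT A against 18.6 and 12.1 in WT E, and the piRNA factor gene Tdrd12 49.98 and 48.4 in WT A against 26.7 and 24.6 in WT E. Of 15 genes of the 2-cell-like state 3 rose and 0 fell, with a median of 0.78 at levels that were mostly under 3 normalized CPM. Zscan4a had 1.48 and 0.818 in WT A and 2.76 and 2.93 in WT E (edgeR adjusted p = 0.0065). These calls were lost without WT A replicate 2 or WT E replicate 1.

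Genes for ribosomal proteins and the respiratory chain, which are short and have many copies in the genome, had more members higher than lower in WT E. Of 88 cytosolic ribosomal protein genes 39 rose and 14 fell, with a median log2 fold change of 0.17, and 11 were DEGs. Without WT A replicate 1 there were 8 lower. Rps12 on chromosome 10 from 23785183 to 23787383 had 193 and 207 normalized CPM in WT A and 870.4 and 659 in WT E (1.93 ± 0.12, edgeR adjusted p = 1e-11). Rps2 had 25.4 and 21.6 in WT A and 92.3 and 124 in WT E, and Rpl17 7.70 and 8.18 in WT A against 32.2 and 52.5 in WT E. Other members fell: Rps27 (-1.35), Rpl22l1 (-1.32) and Rpl30 (-0.87). How reads that match several places were counted is not given in the sources used here, and Rps2 shares 69.5%, Rpl17 44.5% and Rps12 24.6% of their 50-base words with other gene models. The part of such shared reads in these differences was not tested. Gapdh, a gene with many processed copies, stood at only 6.94 and 8.44 in WT A and 15.1 and 26.4 in WT E.

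Oxidative phosphorylation genes had 32 higher and 3 lower of 80, with a median of 0.23, and 1 lower without WT E replicate 2 or either A library. Cox8a, a subunit of cytochrome c oxidase with no shared 50-base words, had 55.4 and 48.7 normalized CPM in WT A and 156 and 172 in WT E (log2 fold change 1.65 ± 0.10, edgeR adjusted p = 7.4e-12). Cox5b had 50.8 and 43.1 in WT A and 155 and 150.4 in WT E, while the ATP synthase subunit gene Atp5e fell from 70.2 and 65.8 to 31.6 and 35.3. Ndufs5, of complex I, had 0.638 and 2.58 in WT A and 21.04 and 11.2 in WT E, and its libraries spread widely in both groups. Mitochondrial ribosome genes had 21 higher and 6 lower of 78. When a smooth trend of fold change on GC content and gene width was taken out, an alternative chosen after seeing the data, the lists had 34 higher and 17 lower, 31 and 12, and 20 and 12, with medians of 0.05, 0.09 and 0.01.

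That trend was visible over all genes. In the lowest of 5 equal bins by GC content of the transcripts (30.97% to 44.2%) the median log2 fold change was -0.08 and 0.878% of genes were higher DEGs, and in the highest bin (55.9% to 72.8%) it was 0.12 and 5.34%. By gene width the median went from 0.06 in the shortest of 5 bins to -0.09 in the longest, and higher DEGs from 5.10% to 0.893%. Lower DEGs went the other way by GC content, from 2.26% to 1.081%. The part of GC content and width in single results was not tested beyond that fit, which called 287 higher and 370 lower DEGs in place of 375 and 330. The naive, formative, YAP and SRF, and endoderm lists had medians of 0.32, -0.61, -0.43 and -0.49 in it. Of genes named here, Cebpb was at 0.83 and Nrtn at 2.31 in that fit, and Junb (0.23), Bcl3 (0.20), Chac1 (0.29), Meg3 (-0.44) and Baz1a (-0.17) no longer passed. Smarca5 (0.31), Rsf1 (0.22), Eif2s3y (0.22), Dppa5a (-0.25), Lefty1 (-0.25), Srf (-0.29), Lifr (-0.18) and Tfap2c (-0.22) passed in it alone of both fits.

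**Figure D4:**
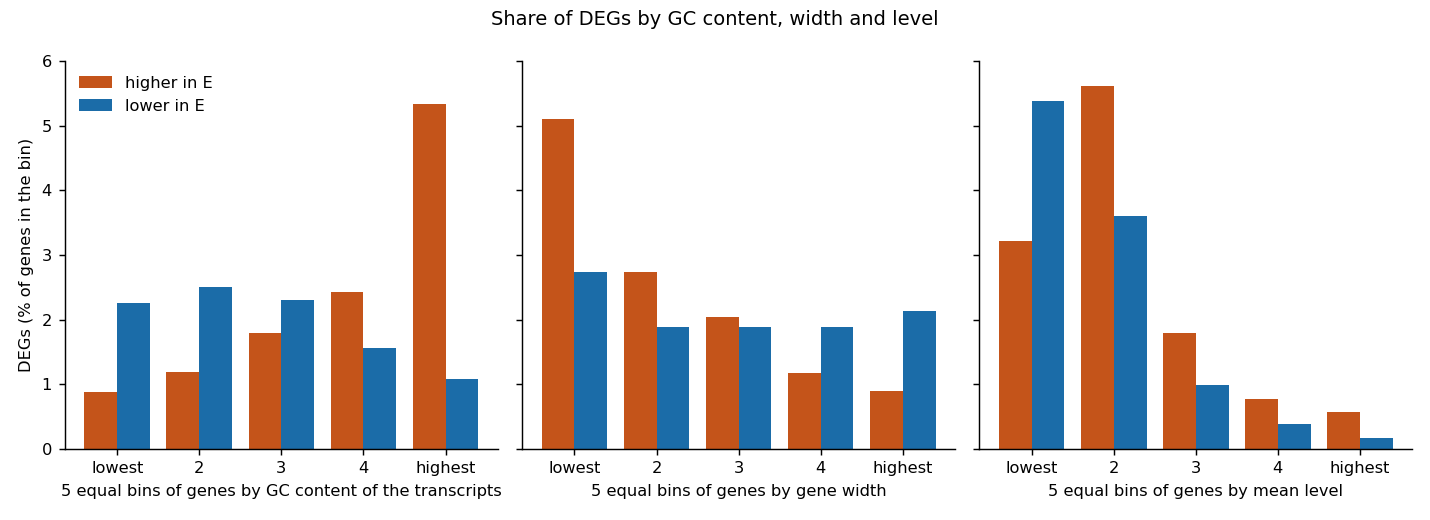
Share of genes (y axis, percent) that are DEGs higher (orange) or lower (blue) in WT E, in 5 equal bins of genes by GC content of their transcripts, by gene width and by mean level (x axes). Higher DEGs make up 5.34% of the bin with the highest GC content and 5.10% of the shortest genes, and DEGs of either direction are rare in the bin with the highest level.

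By chromosome, for genes at a level of 3 or more in log2 CPM, the medians of the autosomes were between -0.06 and 0.03. On the X chromosome, where 321 such genes were tested, the median was -0.06, with 1 higher and 6 lower DEGs, 0.312% and 1.87%, against 1.25% and 0.582% of all 9958 genes at this level. Among 191 windows of 50 neighbouring genes the medians were between -0.21 and 0.27, and the highest window was on chromosome 18, where the clustered protocadherins lie. Of 41 tested protocadherins 14 rose and 0 fell, all 14 of the gamma cluster and all by between 0.28 and 0.30. Genes of the gamma cluster share their last exons, so these are not separate calls, and without WT E replicate 1 only 2 of the 14 passed, and without any other 1 of the 4 libraries these calls were lost. The Y-linked Ddx3y (-0.031), Uty (-0.10) and Eif2s3y (0.22) and the X-linked Xist (0.18, at 7.50 and 9.69 in WT A and 9.06 and 10.4 in WT E) did not pass.

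Genes of the ISWI and CTCF lists differed by less than 2-fold between the batches. Of 13 ISWI subunit genes 3 rose and 3 fell, and 1 rose without WT A replicate 1. Among all genes tested 14.7% rose and 15.0% fell. Smarca5, which encodes the ATPase SNF2H, had 304 and 296 normalized CPM in WT A and 377 and 332 in WT E (log2 fold change 0.24 ± 0.074, edgeR adjusted p = 0.011). Smarca1, which encodes SNF2L, had 41.5 and 43.4 in WT A and 32.2 and 27.7 in WT E and fell by 0.50 (edgeR adjusted p = 2e-05). Per kilobase of gene width Smarca5 was at 39.1 and 38.1 in WT A and 48.4 and 42.6 in WT E, and Smarca1 at 6.79 and 7.09 in WT A and 5.26 and 4.53 in WT E. Among the genes targeted in the deletion lines, Baz2a (TIP5) rose by 0.32 and Cecr2 by 0.28, Baz1a (ACF1) fell by 0.24, and Baz1b (WSTF, -0.22), Bptf (-0.10) and Rsf1 (0.14) did not pass. The calls of Baz2a, Cecr2 and Baz1a were each lost when some 1 of the 4 libraries was left out. Baz2b, a paralog of Baz2a, rose most, from 29.6 and 32.9 to 53.02 and 53.7 (0.77 ± 0.079). Ctcf had 265 and 262 in WT A and 235 and 236 in WT E (-0.16, edgeR adjusted p = 0.02). Of 14 genes of CTCF and cohesin 3 rose and 3 fell, against 1 and 1 without WT A replicate 2, and these calls were lost without WT A replicate 1.

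Among DEGs whose groups do not overlap and that average at least 10 counts, the largest differences were mostly in genes of low count, several of them copies of other genes, with Mir6236, Gm7367 and Ndufs5 as the more abundant ones. H2ac12, a replication-dependent H2A gene on chromosome 13 from 22035122 to 22035643, had 0 counts in both A libraries and 2.10 and 2.70 normalized CPM in WT E, at least 19.3-fold higher when WT A is set at 3 counts per library. It had 0 counts in WT B as well and at most 0.0331 in WT D, and it shares 91.7% of its 50-base words with other gene models. 1700084J12Rik, a transcribed pseudogene, had 1 count in each A library and 6.82 and 5.52 in WT E, a ratio of 149 with an exact 95% counting interval from 40.9 to 1236. It was at 0 in both WT B libraries and at 5.38, 5.76 and 4.73 in WT D. Gm7367, also a pseudogene, had 6.06 and 2.20 in WT A and 75.2 and 62.5 in WT E, and Nrtn, which encodes the neurotrophic factor neurturin, 0.239 and 0.172 in WT A against 2.10 and 2.04 in WT E. Also among the 10 largest increases were Ndufs5, 4933438K21Rik (3.70), Gm4675 (3.33), Gm4971 (3.08) and 1700016D06Rik (2.93).

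Of the 10 largest decreases 4 are annotated as transcribed pseudogenes. Gm13315 had 0.957 and 0.732 normalized CPM in WT A and 0 counts in both E libraries, at least 7.61-fold lower. Gm6498 was at 1.60 and 2.07 in WT A and 0.0368 and 0.0741 in WT E, Gng5-ps at 0.838 and 1.25 in WT A against 0.0737 and 0.037 in WT E, and Pou5f1-rs4, a copy of Pou5f1, at 0.957 and 1.33 in WT A against 0 and 0.185 in WT E. Gng5, the gene that Gng5-ps is a copy of, had a log2 fold change of 0.023 (edgeR adjusted p = 0.89) and Pou5f1 one of -0.024. Csl, a coding copy of the citrate synthase gene Cs, had 2.67 and 2.24 in WT A and 0.221 and 0.148 in WT E, and Cs itself fell by 0.16, from 338 and 327 to 294 and 302 (edgeR adjusted p = 0.00996). Gng5 and Cs were added after these values were seen. Other coding genes in this set were Grm6 (-3.33), a glutamate receptor, Dok6 (-3.30) and Akr1c19 (-3.09).

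Hairpin genes of microRNAs were among them. A polyA library counts the longer transcript across a hairpin and not the mature microRNA, and of 117 tested hairpin genes 7 rose and 18 fell, and 4 and 9 without WT A replicate 2. Mir6236 on chromosome 9 was the most abundant of the named ones, with 116 and 88.3 normalized CPM in WT A, 6.67 and 5.55 in WT E, 168 and 142 in WT B and 92.5, 71.4 and 63.1 in WT D. Which transcripts gave the reads at Mir6236 was not tested. Its drop was not seen when deletion lines of these batches were compared, as given below. Mir295 and Mir293 lie in the cluster on chromosome 7 that makes the most abundant microRNAs of mESCs. Mir295 had 1.48 and 1.55 in WT A and 0.0368 and 0.296 in WT E, and Mir293 0.798 and 0.689 in WT A against 0 and 0.259 in WT E, and their calls were lost without WT E replicate 1 (edgeR adjusted p = 0.017 and 0.097). Their 3p arms are given from RefSeq (GRCm38.p6, + strand, chr7:3220815-3220837 and chr7:3220390-3220411) with the seed, bases 2 to 8, in capitals, to show that they do not share a seed.
mmu-miR-295-3p: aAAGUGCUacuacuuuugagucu
mmu-miR-293-3p: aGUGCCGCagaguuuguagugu
The other hairpins tested in that cluster, named after their values were seen, did not pass: Mir290a (1.45), Mir291a (-3.17), Mir291b (-0.32) and Mir292 (0.53). Small nucleolar RNA genes had 6 lower and 0 higher of 81, with 2 lower without WT A replicate 2 or WT E replicate 1. Of 61 replication-dependent histone genes 4 rose and 0 fell, and 2 rose without WT A replicate 2.

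WT B and WT D place these differences. WT E had 279 DEGs against the mean of WT B and WT D (1.78% of genes tested), 196 higher and 83 lower, and WT A had 455 (2.90%), 393 higher and 62 lower. Without WT E replicate 1 the first count was 169, and without WT A replicate 2 the second was 297. These comparisons share libraries with each other and with WT E against WT A, so they are given side by side only. For the naive list the median was 0.13 in WT E and -0.31 in WT A, and for the formative and primed list 0.12 and 0.55. For YAP and SRF targets both were above 0, at 0.51 and 0.88, and likewise for primitive endoderm genes, at 0.22 and 0.75. Wnt targets were at -0.23 in WT E and 0.23 in WT A.

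Single genes followed several orders. Lef1 was at 1.57 and 1.69 normalized CPM in WT B and 7.29, 6.05 and 5.03 in WT D, so B lay beside E and D beside A. Fgf5 was at 0.613 and 0.575 in WT B and 0.256, 0.228 and 0.232 in WT D, with A alone high. Gdf15 was at 3.91 and 4.49 in WT B and 0.826, 1.11 and 1.52 in WT D, where B lay just under E. For Ankrd1 WT B had 18.4 and 17.6 and WT D 5.32, 3.94 and 3.97, so that B lay just above E and D was lowest. For Klf4 WT B had 168 and 165 and WT D 162, 211 and 197, which overlap with each other and lie between A and E. Over the 705 DEGs, 242 (34.3%) had every A and B library on one side of every D and E library, against 19.4% of all genes tested. A further 278 (39.4%) had both E libraries beyond every A, B and D library, against 19.05%, and another 111 (15.7%) had both A libraries beyond the rest, against 9.01%. Genes that met more than 1 of these were counted in the first. Most DEGs have E and A apart, which by itself raises the summed share of these patterns, so nothing is read from them.

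Other cells of the same batches gave a comparison that shares no library with WT E against WT A. In Acf1Δ of batch E against the mean of Rsf1Δ and WstfΔ of batch A, 336 genes were higher DEGs (2.14% of genes tested) and 199 lower (1.27%), and genotype cannot be told apart from batch in it. Of the 375 DEGs higher in WT E, 41 (10.9%) were higher DEGs there and 11 (2.93%) lower ones. Of the 330 lower in WT E, 33 were lower DEGs there and 20 (6.06%) higher ones. By sign alone, 257 of the 375 (68.5%) were above 0 and 177 of the 330 (53.6%) below 0. The shares by sign over all genes tested are not given beside them, so nothing is read from these 2 shares. Across the 705 DEGs, which are not independent of each other, Pearson's r of the log2 fold changes was 0.45, and across all 15682 genes tested it was 0.13.

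Several of the largest differences were also called there. H2ac12 had a log2 fold change of 9.23, 1700084J12Rik 6.06, Gm6498 -4.51, Csl -2.98 and Gng5-ps -2.65. Mir6236 (0.37), Mir295 (0.63), Grm6 (1.23) and Dok6 (2.20), among the largest decreases in WT E, were above 0 there and did not pass. Ribosomal and respiratory genes were higher there too, with 57 higher and 4 lower of 88 and 42 higher and 0 lower of 80 at an adjusted p under 0.01, a threshold that 16.1% of genes tested passed as higher there and 13.5% as lower. In it Rps2 was at 2.16, Rpl17 at 2.12 and Cox8a at 0.99. ATF4 targets had 28 higher and 0 lower of 33. For genes of cell state the values were others: the naive list had 5 higher and 9 lower with a median of -0.049, the formative and primed list 5 higher and 7 lower with 0.015, and Klf4 (0.0048), Klf5 (-0.16), Lef1 (-0.023) and Mt2 (0.06) did not pass. YAP and SRF targets and primitive endoderm genes were mostly higher in Acf1Δ than in the lines of batch A, with 13 higher and 1 lower and with 17 higher and 1 lower, and Ankrd1 had 2.83 there against -1.32 in WT cells. The Y-linked Ddx3y, Uty and Eif2s3y had no or almost no counts in Rsf1Δ, at most 0.0429 normalized CPM for Ddx3y, against at least 53.05 in WstfΔ, so their values in this comparison follow the Rsf1Δ clone.

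**Figure D5:**
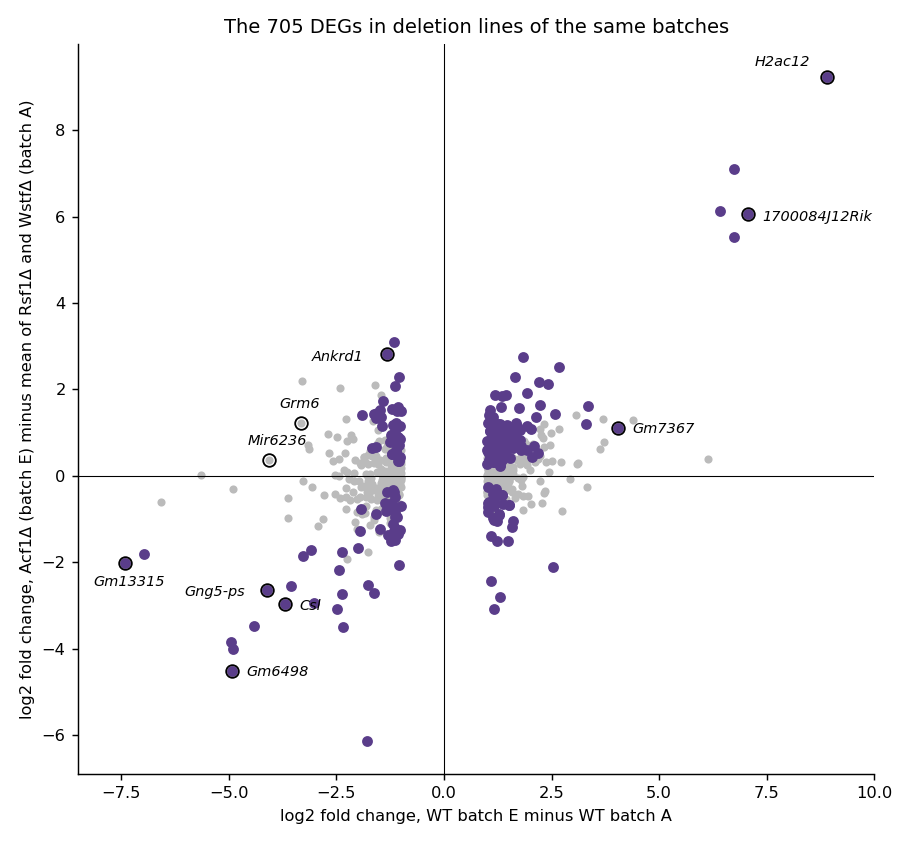
For each of the 705 DEGs, the log2 fold change of WT E minus WT A (x axis) and of Acf1Δ of batch E minus the mean of Rsf1Δ and WstfΔ of batch A (y axis). Purple points had an adjusted p under 0.01 on the y axis and grey points did not, and ringed genes are named; H2ac12 and 1700084J12Rik lie high on both axes, Gm6498 low on both, and Ankrd1 is low on the x axis and high on the y axis.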

How the data were processed

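RNA-seq of mouse embryonic stem cells, labelled polyA in the libraries compared here, was used as raw counts per gene, which the authors deposited in 1 table of 24 libraries (demultiplexing with bcl2fastq 2.17 per the submitters' processing notes, alignment to mm10 with HISAT2 through QuasR, UCSC knownGene models). The treatment of reads that match several places, the strand setting and the sequencer of each library are not given in the sources used here. Genes were filtered with filterByExpr by genotype, scaled by TMM and fitted with edgeR 4.0.16 (R 4.3.3) in a quasi-likelihood model of 11 groups, batch by genotype, over all libraries, WT C included. The study also used edgeR, but with additive terms for batch and genotype, in which WT batches are not compared. WT E minus WT A was the main comparison. Normalized CPM divides counts by TMM-scaled library size. DEGs were called at a change of more than 1 on the log2 scale together with a Benjamini-Hochberg adjusted p below 0.01, and an SE is the log2 fold change over the root of F. Named by rule were, in each direction, the 10 DEGs of greatest change whose groups do not overlap and that average at least 10 counts, up to 4 members of each of 45 gene lists, and fixed genes of pluripotency, ISWI, CTCF and the sex chromosomes. Some genes that the rule names are not reported here. The comparison and the lists were chosen with earlier results of these data known. DESeq2 1.42.0 and other settings were alternatives. The code was tested on simulated data. Intervals and the limit of 3 counts cover counting error only.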

Additional observations from a re-analysis of the deposited data

How the results depend on the processing

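The 705 DEGs of WT E against WT A were between 498 and 737 with DESeq2, other scalings, filters and fits or fewer libraries in the fit, and 657 with the trend of GC content and width removed. Leaving out 1 of the 4 libraries gave 503 to 660 DEGs. The test against a 2-fold change gave 51, no minimum of fold change 4654, and leaving out genes that part batches A and B from D and E, a choice made after seeing the data, 463. For WT E and WT A against the mean of WT B and WT D, the test against a 2-fold change gave 13 and 31, no minimum of fold change 4140 and 2749, a fit of only the 11 WT libraries 150 and 288, and leaving out 1 library 169 to 302 and 297 to 467. For the deletion lines these were 101, 4639 and, leaving out 1 library, 403 to 550. The cause of these changes was not tested beyond what the stricter or looser threshold itself sets. With a replicate block, the 4 comparisons had 695, 268, 434 and 523 DEGs. Replicates of WT E and WT A share only a number, with a correlation of deviations of 0.211 over 9964 genes and no more than 2 pairs.

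Of 2733 alternative values of the 186 named genes, 2385 kept direction and side of the threshold, 331 lost the call, 9 gained one and 8 changed sign. All 8 belong to genes that were not called. Leaving out 1 library at a time gave Pou5f1 -0.11 to 0.037, Bptf -0.21 to 0.00031, Ddx3y -0.087 to 0.025 and Zfp42 -0.0071 to 0.043, with -0.0040 without WT E replicate 2. Zfp42 was at -0.030 with the GC and width trend removed, -0.000682 with no filter and -0.00521 with total counts. Leaving out 1 library changed the call of 53 named genes at least once and of 10 each time. With 2 libraries per group, genes of low count had the widest errors, and a lone library was assumed to vary like the other groups.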
